A study of Mus musculus with 4 samples.

Results

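Oxidative phosphorylation is carried by 5 protein complexes of the inner mitochondrial membrane, whose subunits are encoded partly in the nucleus and partly in the mitochondrial genome. The genes described here were chosen by a rule on their names, with earlier results of these data known. It took symbols beginning with Nduf, Uqcr, Atp5, mt-Nd, mt-Co, mt-Cytb or mt-Atp. It also took symbols beginning with Cox and a digit from 4 to 8, and *Sdha*, *Sdhb*, *Sdhc* and *Sdhd*. The rule found 110 of the 25655 genes listed in the deposited files, 97 nuclear and 13 mitochondrial. It does not take in *Cyc1*, the cytochrome *c*1 gene of complex III, or *Atpif1*, the inhibitor of the ATP synthase, which the files list under those names.

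The study compared neutrophils of WT C57BL/6J mice with those of *Cd300a-/-* mice, which lack the inhibitory receptor CD300a and were kept on a C57BL/6 background. Male mice, 8 to 12 weeks of age, went through myocardial ischemia and reperfusion (MI/R), in which the left anterior descending artery was tied for a time and then released, and hearts were taken on day 3. CD45.2+CD11b+Ly6G+ cells were sorted into SiglecF+ and SiglecF- fractions, called SiglecF hi and SiglecF lo here, and each fraction of each genotype was 1 library made from the pooled cells of 8 mice. With 1 library per group no spread between replicates exists, no test was run, and a difference between genotypes cannot be told apart from a difference between pools.

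Poly(A) RNA was sequenced without marking the strand. Total counts were 19278243 for WT and 17632989 for *Cd300a-/-* among SiglecF hi neutrophils, and 9631901 for WT and 10988619 for *Cd300a-/-* among SiglecF lo neutrophils, with 15160, 14470, 12931 and 12777 genes detected in that order. Intervals given here cover counting error only. They may be too narrow even for that, because reads from amplified libraries are not independent molecules. Levels are in TPM (counts per gene length, scaled to the same sum in every library), and this scale is used wherever genes are compared with each other.

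The genotype labels were checked on *Cd300a* itself. It was at 163 TPM for WT and 0.74 TPM for *Cd300a-/-* among SiglecF hi neutrophils, and 127 TPM for WT and 1.06 TPM for *Cd300a-/-* among SiglecF lo neutrophils, from 6640, 27, 3024 and 28 counts. Both knockout libraries were near 0 and both WT libraries were high. *Siglecf*, which encodes the sorting marker, was at 354 and 405 TPM in WT and *Cd300a-/-* SiglecF hi and 11.3 and 15.3 TPM in WT and *Cd300a-/-* SiglecF lo neutrophils, so the sorted fractions matched their labels. *Ly6g*, used for sorting in both fractions, was at 11.1 and 41.9 TPM in WT and *Cd300a-/-* SiglecF hi and 330.4 and 889 TPM in WT and *Cd300a-/-* SiglecF lo neutrophils, lower in both SiglecF hi libraries. Of the other sorting genes, *Itgam* (CD11b) was at 337 and 388 TPM in WT and *Cd300a-/-* SiglecF hi and 367 and 550.4 TPM in WT and *Cd300a-/-* SiglecF lo neutrophils, and *Ptprc* (CD45) was at 646 and 710.0 TPM in WT and *Cd300a-/-* SiglecF hi and 608 and 683 TPM in WT and *Cd300a-/-* SiglecF lo neutrophils.

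Complex I (NADH dehydrogenase) and complex II (succinate dehydrogenase) pass electrons to ubiquinone, complex III passes them to cytochrome *c*, and complex IV (cytochrome *c* oxidase) passes them to oxygen. Complexes I, III and IV pump protons, and complex V, the ATP synthase, uses the resulting gradient to make ATP. Complex II is the only complex encoded wholly in the nucleus. Mature neutrophils are known for relying largely on glycolysis for ATP, while cardiomyocytes are among the cells richest in respiratory chain transcripts.

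Of the 97 nuclear members, 80 had a mean over the 4 libraries above 10 TPM and were compared further, as were all 13 mitochondrial members. Passing the filter were 37 of 40 nuclear subunit genes of complex I, 4 of 4 of complex II, 8 of 8 of complex III, 11 of 18 of complex IV and 17 of 18 of complex V, along with 3 of the 8 *Ndufaf* genes, which encode assembly factors of complex I, and not the pseudogene *Cox5b-ps*. Just inside the filter were *Ndufa4l2*, *Ndufaf3* and *Atp5g1* at means of 13.2, 17.1 and 18.6 TPM, and just outside it were *Ndufb2*, *Ndufab1* and *Cox4i2* at 8.54, 7.91 and 7.79 TPM. Values of the 17 members below the filter are given as levels and counts, without a place in the medians or in the order of ratios.

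The 13 mitochondrial members carried more transcript than the 97 nuclear members in every library. Their summed level was 60977 TPM for WT and 57725 TPM for *Cd300a-/-* among SiglecF hi neutrophils, and 46228 TPM for WT and 44059 TPM for *Cd300a-/-* among SiglecF lo neutrophils. The nuclear members summed to 18217 TPM for WT and 17857 TPM for *Cd300a-/-* among SiglecF hi neutrophils, and 13766 TPM for WT and 9883 TPM for *Cd300a-/-* among SiglecF lo neutrophils. Both sums were higher in the SiglecF hi libraries than in the SiglecF lo libraries, and the nuclear sum of *Cd300a-/-* SiglecF lo neutrophils lay apart below the other 3.

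As a share of all counts, mitochondrial members made up 2.59% (95% exact binomial interval 2.59 to 2.60) for WT and 2.37% (2.36 to 2.38) for *Cd300a-/-* among SiglecF hi neutrophils, and 2.30% (2.29 to 2.31) for WT and 2.16% (2.15 to 2.17) for *Cd300a-/-* among SiglecF lo neutrophils. Nuclear members made up 0.814% (0.810 to 0.818), 0.778% (0.774 to 0.782), 0.697% (0.692 to 0.702) and 0.487% (0.483 to 0.492) in the same order. The *Cd300a-/-* SiglecF lo library had the lowest share for both genomes, and no intervals overlapped within either genome.

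Within a library, the ratio of the mitochondrial to the nuclear sum does not depend on how libraries are scaled to each other. It was 3.35 for WT and 3.23 for *Cd300a-/-* among SiglecF hi neutrophils, and 3.36 for WT and 4.46 for *Cd300a-/-* among SiglecF lo neutrophils, or 1.74, 1.69, 1.75 and 2.16 on the log2 scale. The ratios of the first 3 libraries were close to each other, and that of the *Cd300a-/-* SiglecF lo library was higher. In bulk libraries such as these, fewer cells of a type and less RNA per cell cannot be told apart.

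**Figure D1:**
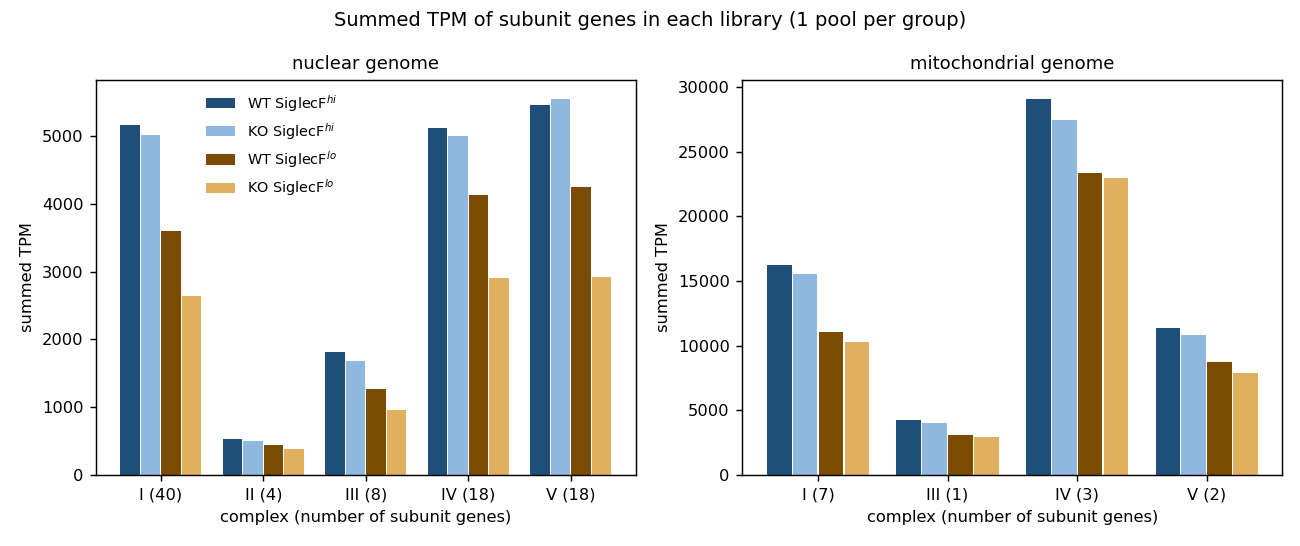
Summed TPM of the subunit genes of each complex (x axis, with the number of genes) for the nuclear genome (left) and the mitochondrial genome (right), 1 bar per library, each a pool of 8 mice. For the nuclear genome the *Cd300a-/-* SiglecF lo bar is the lowest for every complex, for example 2640 TPM against 3602 TPM in WT SiglecF lo neutrophils for complex I.

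Differences between libraries are given as a relative ratio, log2 of (TPM + 1) in one library over the other, minus the median of the same value over the 6523 genes whose mean passed 10 TPM. Those medians were 0.53 for SiglecF hi against SiglecF lo in WT, 0.61 for the same in *Cd300a-/-*, -0.016 for *Cd300a-/-* against WT within SiglecF lo and 0.038 within SiglecF hi neutrophils. A few abundant genes took more of the SiglecF lo libraries: the 10 most abundant genes held 12.3% and 11.8% of TPM in WT and *Cd300a-/-* SiglecF hi neutrophils and 22.8% and 26.7% in WT and *Cd300a-/-* SiglecF lo neutrophils. A gene is called higher or lower where its relative ratio was past 0.5 in that direction.

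In WT mice, SiglecF hi and SiglecF lo neutrophils differed little in nuclear oxidative phosphorylation genes once all genes were taken as the reference. The median relative ratio of the 80 nuclear members was 0.017, and its sign changed to -0.054 with DESeq2 size factors. Of these members 6 were higher in SiglecF hi (7.50%, against 19.3% of all genes) and 5 were lower (6.25%, against 20.9%), so fewer passed the threshold than among all genes. The values ran from -1.68 to 0.78. With DESeq2 size factors 5 were higher and 7 lower.

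The members higher in WT SiglecF hi neutrophils were *Ndufs6*, *Ndufb4*, *Ndufc1*, *Atp5g2*, *Atp5o_2* (the second listing of *Atp5o* in the files) and *Uqcrc1*, and those lower were *Ndufa4l2*, *Sdhd*, *Ndufa5*, *Cox7a2l* and *Atp5l*. *Ndufc1*, *Ndufa5* and *Atp5o_2* are named here after their values were seen. The 13 mitochondrial members had a median relative ratio of -0.094 in this comparison, from -0.22 to 0.25, and none passed 0.5. The sign of that median changed, to 0.052 without a filter and to 0.043 centred on genes of like length, chosen after seeing the data. Without the subtraction of the median of all genes, the median was 0.43 for mitochondrial and 0.54 for nuclear members, of which 43 were then higher and 1 lower, against 51.9% and 7.47% of all genes.

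In *Cd300a-/-* mice, nuclear members were higher in SiglecF hi than in SiglecF lo neutrophils at the median. Their median relative ratio was 0.38, from -1.97 to 1.56, with 25 of 80 higher (31.2%, against 21.2% of all genes) and 3 lower (3.75%, against 23.6%), namely *Ndufa4l2*, *Ndufaf7* and *Sdhd*. Centred on genes of like length, chosen after seeing the data, their median was 0.21 and 16 of 80 were higher (20.0%, against 21.3% of all genes). The mitochondrial members had a median of -0.15, from -0.52 to 0.22, and 1 of 13, *mt-Co1*, was lower. With TMM scaling none of them was lower, and without a filter their median turned to 0.038 with none lower. Centred by length, their median was -0.33 and 2, *mt-Co1* and *mt-Co2*, were lower (against 22.8% of all genes). Without the subtraction the medians were 0.99 for nuclear and 0.46 for mitochondrial members, and 69 nuclear members were higher and 2 lower, against 56.6% and 7.97% of all genes.

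Between genotypes, nuclear members differed most in the SiglecF lo libraries. The median relative ratio of nuclear members in *Cd300a-/-* against WT SiglecF lo neutrophils was -0.47, from -1.69 to 1.12. Of the 80, 38 were lower (47.5%, against 19.1% of all genes) and 1, *Ndufaf7*, was higher (1.25%, against 17.2%), and 74 had a ratio below 0. Mitochondrial members had a median of -0.045, from -0.54 to 0.081, and 1 of 13, *mt-Nd4l*, was lower. Centred on genes of like length, a setting chosen after seeing the data, the medians were -0.097 for nuclear members, of which 10 were then lower (12.5%, against 15.7% of all genes), and 0.37 for mitochondrial members, of which none was then lower and 1, *mt-Co2*, higher. With DESeq2 size factors no mitochondrial member was past 0.5. This comparison and that of SiglecF hi against SiglecF lo in *Cd300a-/-* mice share the *Cd300a-/-* SiglecF lo library, so their values are given side by side and are not independent.

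Within SiglecF hi neutrophils the genotypes were closer in nuclear members. The median of nuclear members in *Cd300a-/-* against WT was -0.10, from -0.70 to 0.33, with 60 of 80 below 0, none called higher (against 2.64% of all genes) and 3 called lower (3.75%, against 4.09%), namely *Ndufa4l2*, *Ndufaf8* and *Ndufa11*, the last named after its value was seen. With TMM scaling, with DESeq2 size factors and without centring, 2 were lower. Centred on genes of like length, the median was -0.0091, with 42 of 80 below 0, none higher (against 2.79% of all genes) and 1 lower (1.25%, against 3.76%). The mitochondrial median was -0.11, from -0.45 to 0.092, with none past 0.5, and 0.0031 when centred by length.

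The comparisons of genotype within either fraction share no library. Whether both fractions of a genotype came from the same mice is not stated, so a difference between pools of mice could reach both comparisons. In both, 56 of 80 nuclear members (70%) and 9 of 13 mitochondrial members had a ratio below 0, beside 1947 of 6523 genes tested (29.8%). Centred on genes of like length, chosen after seeing the data, these were 28 of 80 (35%), 1 of 13 and 1860 of 6523 (28.5%). By level, *Cd300a-/-* SiglecF lo neutrophils had the lowest TPM of the 4 libraries for 73 of 80 nuclear and 11 of 13 mitochondrial members (91.2% and 84.6%), against 46.4% of all genes. WT SiglecF hi neutrophils had the highest TPM for 49 of 80 nuclear and 11 of 13 mitochondrial members (61.2% and 84.6%), against 35.2% of all genes.

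**Figure D2:**
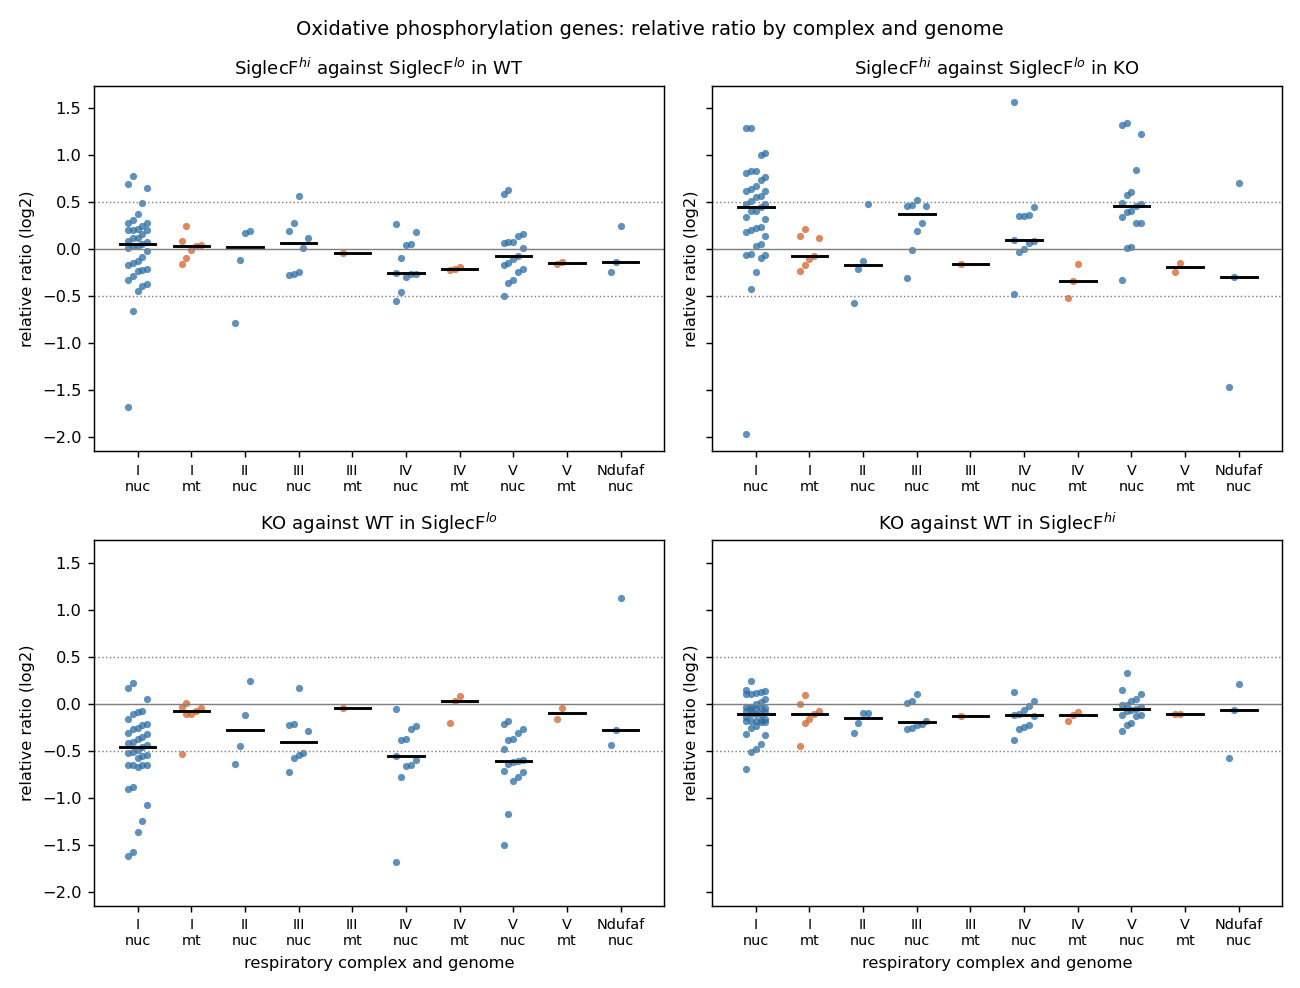
Relative ratio (y axis, log2, minus the median of all genes tested) of each member, by complex and genome (x axis, nuc nuclear and mt mitochondrial), in the 4 comparisons (KO, *Cd300a-/-*), with 1 point per gene, a black bar at the median and dotted lines at 0.5 and -0.5. Most nuclear points lie below 0 in *Cd300a-/-* against WT SiglecF lo neutrophils, with medians for complexes I and V of -0.46 and -0.60, while the mitochondrial points have a median of -0.045.

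Complex I is built from a matrix arm, which oxidises NADH, and a membrane arm, which pumps protons. Its 40 nuclear subunit genes summed to 5173 TPM for WT and 5024 TPM for *Cd300a-/-* among SiglecF hi neutrophils, and 3602 TPM for WT and 2640 TPM for *Cd300a-/-* among SiglecF lo neutrophils. The medians of the relative ratios of the 37 that passed the filter were 0.058 for SiglecF hi against SiglecF lo in WT, 0.45 in *Cd300a-/-* mice, -0.46 for *Cd300a-/-* against WT within SiglecF lo and -0.10 within SiglecF hi neutrophils. In *Cd300a-/-* SiglecF lo against WT SiglecF lo neutrophils 17 were lower and none higher, and in SiglecF hi against SiglecF lo neutrophils of *Cd300a-/-* mice 16 were higher and 1, *Ndufa4l2*, lower. Of all genes 19.1% were lower and 17.2% higher in the former comparison, and 21.2% higher and 23.6% lower in the latter. Centred on genes of like length, the complex I median in the former was -0.096 with 6 of 37 lower and 2, *Ndufb4* and *Ndufb11* (named after its value was seen), higher (against 15.7% and 14.2% of all genes). In the latter, 9 of 37 were then higher (against 21.3%) and 2, *Ndufa4l2* and *Ndufb11*, lower (against 22.8%).

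*Ndufa7*, a supernumerary subunit, was the most abundant nuclear gene of complex I per length by the mean of the 4 libraries, though not in each library. It was at 395 and 386 TPM in WT and *Cd300a-/-* SiglecF hi and 263 and 189 TPM in WT and *Cd300a-/-* SiglecF lo neutrophils. Its relative ratio in *Cd300a-/-* against WT SiglecF lo neutrophils was -0.46 (95% interval -0.61 to -0.30). The largest fall of complex I in that comparison was at *Ndufb5* (ENSMUSG00000027673, chr3:32791139-32805715 on GRCm39), which encodes a subunit of the membrane arm. It was at 67.3 TPM for WT and 55.1 TPM for *Cd300a-/-* among SiglecF hi neutrophils, and 45.4 TPM for WT and 13.95 TPM for *Cd300a-/-* among SiglecF lo neutrophils, from 1194, 875, 472 and 160 counts. The *Cd300a-/-* SiglecF lo library was low and the other 3 were within a narrower range, giving relative ratios of -1.62 (95% interval -1.86 to -1.37) for *Cd300a-/-* against WT in SiglecF lo neutrophils and 1.29 (95% interval 1.06 to 1.52) for SiglecF hi against SiglecF lo in *Cd300a-/-* mice.

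*Ndufa5*, *Ndufa10*, *Ndufc2* and *Ndufa12*, supernumerary subunits named after their values were seen, followed in size among complex I genes. *Ndufa5* was at 37.6 and 42.9 TPM in WT and *Cd300a-/-* SiglecF hi and 41.4 and 13.1 TPM in WT and *Cd300a-/-* SiglecF lo neutrophils. The WT libraries were alike while the *Cd300a-/-* libraries differed, and the relative ratio of SiglecF hi against SiglecF lo was -0.66 (95% interval -0.92 to -0.40) in WT and 1.03 (95% interval 0.66 to 1.39) in *Cd300a-/-* mice. In *Cd300a-/-* against WT SiglecF lo neutrophils it was -1.57 for *Ndufa5*, -1.36 for *Ndufa10*, -1.25 for *Ndufc2* and -1.07 for *Ndufa12*.

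*Ndufb4*, a membrane arm subunit, was at 107 and 119 TPM in WT and *Cd300a-/-* SiglecF hi and 45.1 and 52.3 TPM in WT and *Cd300a-/-* SiglecF lo neutrophils, high in both SiglecF hi libraries, with relative ratios of 0.70 and 0.56 for SiglecF hi against SiglecF lo in WT and *Cd300a-/-* mice and 0.23 (95% interval -0.02 to 0.47) for *Cd300a-/-* against WT in SiglecF lo. *Ndufs6*, a zinc-binding subunit of the matrix arm, was at 111 and 84.5 TPM in WT and *Cd300a-/-* SiglecF hi and 44.2 and 34.8 TPM in WT and *Cd300a-/-* SiglecF lo neutrophils. It was also high in both SiglecF hi libraries, with the largest rise of the 80 nuclear members in WT at 0.78 (95% interval 0.57 to 1.000), and lowest in *Cd300a-/-* SiglecF lo, with -0.32 (95% interval -0.61 to -0.039) against WT. *Ndufb9*, another membrane arm subunit, had the largest ratio of the 37 complex I subunits past the filter in *Cd300a-/-* against WT SiglecF hi neutrophils, 0.24 (95% interval 0.14 to 0.34), below the threshold. It too was lowest in *Cd300a-/-* SiglecF lo, with -0.21 (95% interval -0.36 to -0.062) against WT.

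*Ndufa4* was named as a complex I gene, although its protein is now placed in complex IV, and it is counted here by its name. It was at 264 and 239 TPM in WT and *Cd300a-/-* SiglecF hi and 212 and 141 TPM in WT and *Cd300a-/-* SiglecF lo neutrophils, lowest in *Cd300a-/-* SiglecF lo neutrophils, with a relative ratio of -0.57 (95% interval -0.74 to -0.41) against WT. Its relative *Ndufa4l2*, a known target of hypoxia-inducible factor 1, was far less abundant at 9.39 and 5.59 TPM in WT and *Cd300a-/-* SiglecF hi and 22.1 and 15.9 TPM in WT and *Cd300a-/-* SiglecF lo neutrophils. Both SiglecF lo libraries were higher than both SiglecF hi libraries. The relative ratio of SiglecF hi against SiglecF lo was -1.68 (95% interval -2.07 to -1.29) in WT and -1.97 (95% interval -2.44 to -1.50) in *Cd300a-/-* mice, the lowest of all 80 nuclear members in both, and for *Cd300a-/-* against WT it was -0.44 (95% interval -0.83 to -0.046) within SiglecF lo and -0.70 (95% interval -1.17 to -0.22) within SiglecF hi neutrophils.

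The *Ndufaf* genes encode factors that help assemble complex I and are not part of it. *Ndufaf7* (ENSMUSG00000024082, chr17:79244565-79255481 on GRCm39), an arginine methyltransferase that acts on a core subunit, was at 17.01 TPM for WT and 16.6 TPM for *Cd300a-/-* among SiglecF hi neutrophils, and 13.7 TPM for WT and 30.8 TPM for *Cd300a-/-* among SiglecF lo neutrophils, from 404, 354, 191 and 472 counts. It was high in the *Cd300a-/-* SiglecF lo library, the reverse of most members, with a relative ratio of 1.12 (95% interval 0.90 to 1.35) against WT SiglecF lo and -1.46 (95% interval -1.65 to -1.27) for SiglecF hi against SiglecF lo in *Cd300a-/-* mice. *Ndufaf8* was at 39.8 and 27.1 TPM in WT and *Cd300a-/-* SiglecF hi and 30.00 and 21.6 TPM in WT and *Cd300a-/-* SiglecF lo neutrophils. *Ndufaf3*, an early assembly factor, was at 21.3 and 25.5 TPM in WT and *Cd300a-/-* SiglecF hi and 12.04 and 9.61 TPM in WT and *Cd300a-/-* SiglecF lo neutrophils. The relative ratio of *Ndufaf8* in *Cd300a-/-* against WT SiglecF hi neutrophils was -0.58 (95% interval -0.84 to -0.31), and that of *Ndufaf3* for SiglecF hi against SiglecF lo in *Cd300a-/-* mice was 0.71 (95% interval 0.38 to 1.03).

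Below the filter were *Ndufaf1*, *Ndufaf2*, *Ndufaf4*, *Ndufaf5* and *Ndufaf6*. *Ndufaf2* had 118 and 101 counts in WT and *Cd300a-/-* SiglecF hi and 83 and 11 counts in WT and *Cd300a-/-* SiglecF lo neutrophils, and *Ndufaf1* had 176 and 96 counts in WT and *Cd300a-/-* SiglecF hi and 52 and 12 counts in WT and *Cd300a-/-* SiglecF lo neutrophils. Both were lowest in the *Cd300a-/-* SiglecF lo library. *Ndufaf5* had 65 and 44 counts in WT and *Cd300a-/-* SiglecF hi and 29 and 20 counts in WT and *Cd300a-/-* SiglecF lo neutrophils. *Ndufaf4* had 110 and 120 counts in WT and *Cd300a-/-* SiglecF hi and 16 and 19 counts in WT and *Cd300a-/-* SiglecF lo neutrophils. It was not lower in the *Cd300a-/-* than in the WT SiglecF lo library, at 0.92 against 0.86 TPM. *Ndufaf6* had 13 counts in the WT SiglecF lo library and 0 in its *Cd300a-/-* counterpart, at least 4.78-fold lower in TPM, where the bound sets the library at 0 to 3 counts, as do the other bounds given here.

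The subunit genes *Ndufb2* and *Ndufab1*, the latter encoding the mitochondrial acyl carrier protein, were just below the filter. *Ndufab1* was at 13.8 and 10.05 TPM in WT and *Cd300a-/-* SiglecF hi and 4.48 and 3.31 TPM in WT and *Cd300a-/-* SiglecF lo neutrophils. *Ndufb2* was at 11.1 and 11.2 TPM in WT and *Cd300a-/-* SiglecF hi and 7.87 and 4.03 TPM in WT and *Cd300a-/-* SiglecF lo neutrophils. The SiglecF hi libraries were the higher ones for both genes. *Ndufb11b* had 20 counts in *Cd300a-/-* SiglecF hi neutrophils and 0 elsewhere, at least 7.45-fold higher in TPM than in WT SiglecF hi.

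Complex II links the citrate cycle to the respiratory chain, and its 4 genes summed to 534 TPM for WT and 495 TPM for *Cd300a-/-* among SiglecF hi neutrophils, and 436 TPM for WT and 378 TPM for *Cd300a-/-* among SiglecF lo neutrophils. Their median relative ratios were 0.03 for SiglecF hi against SiglecF lo in WT, -0.17 in *Cd300a-/-* mice, -0.28 for *Cd300a-/-* against WT within SiglecF lo and -0.15 within SiglecF hi neutrophils. The 4 genes did not move as a unit. *Sdha*, the flavoprotein that oxidises succinate, was at 129 and 124 TPM in WT and *Cd300a-/-* SiglecF hi and 79.1 and 93.2 TPM in WT and *Cd300a-/-* SiglecF lo neutrophils, lower in both SiglecF lo libraries, with relative ratios of 0.17 and -0.21 for SiglecF hi against SiglecF lo in WT and *Cd300a-/-* mice and 0.25 (95% interval 0.14 to 0.36) for *Cd300a-/-* against WT in SiglecF lo.

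*Sdhb*, the iron-sulfur subunit, was at 212 and 203 TPM in WT and *Cd300a-/-* SiglecF hi and 159 and 145 TPM in WT and *Cd300a-/-* SiglecF lo neutrophils, and none of its 4 relative ratios passed 0.5. The membrane anchors *Sdhc* and *Sdhd* differed from each other. *Sdhc* was at 54.1 and 44.6 TPM in WT and *Cd300a-/-* SiglecF hi and 32.5 and 20.3 TPM in WT and *Cd300a-/-* SiglecF lo neutrophils, lowest in *Cd300a-/-* SiglecF lo neutrophils, with -0.64 (95% interval -0.82 to -0.45) against WT. *Sdhd* was at 139 and 124 TPM in WT and *Cd300a-/-* SiglecF hi and 165 and 120.1 TPM in WT and *Cd300a-/-* SiglecF lo neutrophils, highest in WT SiglecF lo neutrophils. Its relative ratio of SiglecF hi against SiglecF lo was -0.78 (95% interval -0.89 to -0.67) in WT and -0.57 (95% interval -0.70 to -0.44) in *Cd300a-/-* mice.

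Complex III takes electrons from ubiquinol. Its 8 nuclear genes summed to 1807 TPM for WT and 1682 TPM for *Cd300a-/-* among SiglecF hi neutrophils, and 1264 TPM for WT and 961 TPM for *Cd300a-/-* among SiglecF lo neutrophils, with median relative ratios of 0.07 for SiglecF hi against SiglecF lo in WT, 0.37 in *Cd300a-/-* mice, -0.40 for *Cd300a-/-* against WT within SiglecF lo and -0.20 within SiglecF hi neutrophils. In *Cd300a-/-* against WT SiglecF lo neutrophils 4 of 8 were lower and none higher, against 19.1% and 17.2% of all genes. None was lower when centred by length, against 15.7% of all genes. *Uqcrh*, the hinge protein, was the most abundant at 431 and 371 TPM in WT and *Cd300a-/-* SiglecF hi and 354 and 299.6 TPM in WT and *Cd300a-/-* SiglecF lo neutrophils, highest in WT SiglecF hi neutrophils, and it passed 0.5 in none of the comparisons.

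*Uqcrc1*, a core protein of complex III, was at 137 and 151 TPM in WT and *Cd300a-/-* SiglecF hi and 63.3 and 70.5 TPM in WT and *Cd300a-/-* SiglecF lo neutrophils. Both SiglecF hi libraries were above both SiglecF lo libraries, and the relative ratio of SiglecF hi against SiglecF lo was 0.57 (95% interval 0.44 to 0.70) in WT and 0.48 (95% interval 0.36 to 0.59) in *Cd300a-/-* mice. The small subunit *Uqcr10* was at 296 and 310.4 TPM in WT and *Cd300a-/-* SiglecF hi and 247 and 147 TPM in WT and *Cd300a-/-* SiglecF lo neutrophils, lowest in *Cd300a-/-* SiglecF lo neutrophils, with -0.73 (95% interval -0.92 to -0.54) against WT. *Uqcrb* and *Uqcrq*, also small subunits, had -0.55 (95% interval -0.73 to -0.36) and -0.52 (95% interval -0.67 to -0.38) in that comparison, and *Uqcr11* had -0.27 (95% interval -0.40 to -0.14) in *Cd300a-/-* against WT SiglecF hi neutrophils.

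Complex IV has a catalytic core from the mitochondrial genome and nuclear subunits around it, several of which exist as tissue isoforms. Its 18 nuclear genes summed to 5129 TPM for WT and 5001 TPM for *Cd300a-/-* among SiglecF hi neutrophils, and 4140 TPM for WT and 2914 TPM for *Cd300a-/-* among SiglecF lo neutrophils. The 11 that passed the filter had median relative ratios of -0.25 for SiglecF hi against SiglecF lo in WT, 0.094 in *Cd300a-/-* mice, -0.55 for *Cd300a-/-* against WT within SiglecF lo and -0.12 within SiglecF hi neutrophils. In *Cd300a-/-* against WT SiglecF lo neutrophils 6 of 11 were lower, against 19.1% of all genes, and none was higher. Centred by length, 1 of 11, *Cox7b*, was lower, against 15.7% of all genes.

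*Cox7b* (ENSMUSG00000031231, chrX:105059306-105066056 on GRCm39), a small membrane subunit needed for complex IV assembly, had the largest fall between the SiglecF lo libraries of all members past the filter. It was at 249 TPM for WT and 212 TPM for *Cd300a-/-* among SiglecF hi neutrophils, and 152 TPM for WT and 46.00 TPM for *Cd300a-/-* among SiglecF lo neutrophils, from 2186, 1664, 781 and 261 counts. The *Cd300a-/-* SiglecF lo library stood far below the other 3. The relative ratio was -1.69 (95% interval -1.88 to -1.49) for *Cd300a-/-* against WT in SiglecF lo, 1.56 (95% interval 1.38 to 1.75) for SiglecF hi against SiglecF lo in *Cd300a-/-* mice, 0.18 for the same in WT and -0.27 for *Cd300a-/-* against WT in SiglecF hi neutrophils.

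The ubiquitous isoforms were abundant in every library. *Cox6a1* was at 908 and 866 TPM in WT and *Cd300a-/-* SiglecF hi and 673 and 441 TPM in WT and *Cd300a-/-* SiglecF lo neutrophils. *Cox4i1* was at 800.0 and 756 TPM in WT and *Cd300a-/-* SiglecF hi and 666 and 504 TPM in WT and *Cd300a-/-* SiglecF lo neutrophils. Both were lowest in *Cd300a-/-* SiglecF lo neutrophils, with relative ratios against WT of -0.59 (95% interval -0.69 to -0.50) and -0.38 (95% interval -0.46 to -0.31). *Cox8a*, the ubiquitous isoform of subunit VIII, was at 783 and 819.6 TPM in WT and *Cd300a-/-* SiglecF hi and 746 and 503 TPM in WT and *Cd300a-/-* SiglecF lo neutrophils, with -0.55 (95% interval -0.64 to -0.46). *Cox6b1* was at 586 and 659 TPM in WT and *Cd300a-/-* SiglecF hi and 490.0 and 403 TPM in WT and *Cd300a-/-* SiglecF lo neutrophils. Its relative ratio in *Cd300a-/-* against WT was -0.27 within SiglecF lo and 0.13 within SiglecF hi neutrophils.

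*Cox7a2*, the form of subunit VIIa found outside muscle, was at 400.3 and 392 TPM in WT and *Cd300a-/-* SiglecF hi and 267 and 255 TPM in WT and *Cd300a-/-* SiglecF lo neutrophils and had the ratio nearest 0 of the nuclear complex IV genes between the SiglecF lo libraries, -0.049 (95% interval -0.18 to 0.081). *Cox7a2l* was at 291 and 274 TPM in WT and *Cd300a-/-* SiglecF hi and 297 and 250.1 TPM in WT and *Cd300a-/-* SiglecF lo neutrophils. Its relative ratio of SiglecF hi against SiglecF lo was -0.55 (95% interval -0.64 to -0.47) in WT and -0.48 (95% interval -0.57 to -0.39) in *Cd300a-/-* mice. *Cox7c* had -0.78 (95% interval -0.94 to -0.63) for *Cd300a-/-* against WT within SiglecF lo and -0.39 (95% interval -0.49 to -0.28) within SiglecF hi neutrophils, and *Cox6c* had 0.27 (95% interval 0.16 to 0.38) for SiglecF hi against SiglecF lo in WT.

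The muscle and other tissue isoforms of complex IV were below the filter. *Cox7a1* and *Cox6a2* are the heart and muscle forms of subunits VIIa and VIa. *Cox7a1* was at 6.60 and 12.8 TPM in WT and *Cd300a-/-* SiglecF hi and 6.55 and 0 TPM in WT and *Cd300a-/-* SiglecF lo neutrophils, from 31, 54, 18 and 0 counts, at least 6.62-fold lower in *Cd300a-/-* SiglecF lo than in WT SiglecF lo neutrophils and at least 12.99-fold higher in SiglecF hi than in SiglecF lo neutrophils of *Cd300a-/-* mice. *Cox6a2* had 37 and 51 counts in WT and *Cd300a-/-* SiglecF hi and 8 and 2 counts in WT and *Cd300a-/-* SiglecF lo neutrophils. *Cox8b*, the muscle form of subunit VIII, had 4 and 1 counts in WT and *Cd300a-/-* SiglecF hi and 18 and 0 in WT and *Cd300a-/-* SiglecF lo neutrophils, at least 6.62-fold lower in the last.

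*Cox4i2*, an isoform of subunit IV known from lung and from low oxygen, had 13 and 30 counts in WT and *Cd300a-/-* SiglecF hi and 99 and 0 counts in WT and *Cd300a-/-* SiglecF lo neutrophils. It was highest in WT SiglecF lo neutrophils, at 24.5 TPM, and at 0 in *Cd300a-/-* SiglecF lo neutrophils, at least 36.4-fold lower. *Cox6b2*, a testis form, had 28 and 16 counts in WT and *Cd300a-/-* SiglecF hi neutrophils and 0 in both SiglecF lo libraries, at least 5.46-fold and 3.85-fold higher in SiglecF hi than in SiglecF lo. *Cox7b2* and *Cox8c* were at 0 counts in every library, as were *Cox5b-ps* and 1 of the 2 listings of *Atp5o*.

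The muscle isoforms belong to the cardiomyocyte marker list, so its level is given beside them. The 21 cardiomyocyte genes, 3 of which are *Cox6a2*, *Cox7a1* and *Cox8b*, summed to 116 TPM for WT and 172 TPM for *Cd300a-/-* among SiglecF hi neutrophils, and 119 TPM for WT and 44.3 TPM for *Cd300a-/-* among SiglecF lo neutrophils, and *Mb*, the most abundant by the mean of the 4 libraries, was at 12.98 and 31.2 TPM in WT and *Cd300a-/-* SiglecF hi and 7.96 and 1.30 TPM in WT and *Cd300a-/-* SiglecF lo neutrophils. The most abundant was *Fabp3* in WT SiglecF hi at 14.5 TPM and in WT SiglecF lo at 16.3 TPM, and *Myl2* in *Cd300a-/-* SiglecF lo at 12.5 TPM. In the *Cd300a-/-* SiglecF lo library *Tnnc1*, *Myl7*, *Ryr2*, *Nppa*, *Ckm*, *Cox7a1* and *Cox8b* were at 0. The sum was lowest in the *Cd300a-/-* SiglecF lo library too. The sort on CD45.2, CD11b and Ly6G should remove cardiomyocytes, and the part of their RNA in the isoform values was not tested.

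Complex V has a catalytic head, a rotor with a ring of c subunits and a stator stalk. Its 18 nuclear genes summed to 5461 TPM for WT and 5557 TPM for *Cd300a-/-* among SiglecF hi neutrophils, and 4249 TPM for WT and 2922 TPM for *Cd300a-/-* among SiglecF lo neutrophils, with median relative ratios of -0.068 for SiglecF hi against SiglecF lo in WT, 0.46 in *Cd300a-/-* mice, -0.60 for *Cd300a-/-* against WT within SiglecF lo and -0.051 within SiglecF hi neutrophils for the 17 that passed the filter. In *Cd300a-/-* against WT SiglecF lo neutrophils 10 of 17 were lower and none higher, against 19.1% and 17.2% of all genes. In *Cd300a-/-* mice 6 of 17 were higher in SiglecF hi than in SiglecF lo neutrophils and none was lower, against 21.2% and 23.6% of all genes. Centred by length, 2 of 17, *Atp5g1* and *Atp5mpl*, were lower and none higher in the former comparison, against 15.7% and 14.2% of all genes. In the latter, 5 of 17 were higher and 1, *Atp5l*, lower, against 21.3% and 22.8% of all genes.

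The 3 c-ring genes encode the same mature protein with different import sequences, and their levels in TPM differed. TPM divides by gene length, which was computed as 4912 bases for *Atp5g1*, 1675 for *Atp5g2* and 724 for *Atp5g3*. In WT SiglecF hi neutrophils their counts were 1213, 1996 and 2276 in that order, closer together than their TPM. *Atp5g3* was the most abundant at 358 and 314 TPM in WT and *Cd300a-/-* SiglecF hi and 237 and 155 TPM in WT and *Cd300a-/-* SiglecF lo neutrophils. *Atp5g2* was at 136 and 142 TPM in WT and *Cd300a-/-* SiglecF hi and 60.4 and 35.8 TPM in WT and *Cd300a-/-* SiglecF lo neutrophils. *Atp5g1* (ENSMUSG00000006057, chr11:95959678-95966496 on GRCm39) was at 28.1 TPM for WT and 23.5 TPM for *Cd300a-/-* among SiglecF hi neutrophils, and 17.3 TPM for WT and 5.39 TPM for *Cd300a-/-* among SiglecF lo neutrophils. All 3 were lowest in the *Cd300a-/-* SiglecF lo library. Their relative ratios between the SiglecF lo libraries were -0.59 (95% interval -0.74 to -0.45), -0.72 (95% interval -0.92 to -0.53) and -1.50 (95% interval -1.74 to -1.27).

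*Atp5g2* was also higher in SiglecF hi than in SiglecF lo neutrophils of both genotypes, with relative ratios of 0.63 (95% interval 0.49 to 0.77) in WT and 1.35 (95% interval 1.18 to 1.51) in *Cd300a-/-* mice. *Atp5mpl*, a small proteolipid attached to the membrane part, was at 209 and 270.3 TPM in WT and *Cd300a-/-* SiglecF hi and 171 and 74.8 TPM in WT and *Cd300a-/-* SiglecF lo neutrophils, highest in *Cd300a-/-* SiglecF hi and lowest in *Cd300a-/-* SiglecF lo neutrophils. Its relative ratio in *Cd300a-/-* against WT was -1.17 (95% interval -1.37 to -0.97) within SiglecF lo and 0.33 (95% interval 0.22 to 0.44) within SiglecF hi neutrophils, the largest in the latter among the complex V genes.

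*Atp5l*, subunit g of the membrane part, was the most abundant nuclear gene of complex V by the mean of the 4 libraries, though not in each library. It was at 826 and 841 TPM in WT and *Cd300a-/-* SiglecF hi and 812 and 690.1 TPM in WT and *Cd300a-/-* SiglecF lo neutrophils. Its level varied less than most, and its relative ratio of SiglecF hi against SiglecF lo was -0.50 (95% interval -0.58 to -0.43) in WT and -0.33 (95% interval -0.41 to -0.25) in *Cd300a-/-* mice. *Atp5d*, the delta subunit of the rotor stalk, had the ratio nearest 0 of the nuclear complex V genes between the SiglecF lo libraries, -0.18 (95% interval -0.31 to -0.056), from 187 and 188 TPM in WT and *Cd300a-/-* SiglecF hi and 139 and 121 TPM in WT and *Cd300a-/-* SiglecF lo neutrophils. *Atp5b*, the catalytic beta subunit, named after its values were seen, was at 574 and 566 TPM in WT and *Cd300a-/-* SiglecF hi and 418 and 269 TPM in WT and *Cd300a-/-* SiglecF lo neutrophils, with -0.62 (95% interval -0.69 to -0.55).

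The mitochondrial genome encodes 7 subunits of complex I, 1 of complex III, 3 of complex IV and 2 of complex V, and its protein genes are copied from long shared transcripts. Those of complex I summed to 16258 and 15506 TPM in WT and *Cd300a-/-* SiglecF hi and 11073 and 10270 TPM in WT and *Cd300a-/-* SiglecF lo neutrophils. Those of complex IV summed to 29123 and 27424 TPM in WT and *Cd300a-/-* SiglecF hi and 23341 and 22956 TPM in WT and *Cd300a-/-* SiglecF lo neutrophils. Those of complex V summed to 11327 and 10789 TPM in WT and *Cd300a-/-* SiglecF hi and 8760 and 7904 TPM in WT and *Cd300a-/-* SiglecF lo neutrophils. In TPM, all 3 sums were higher in the SiglecF hi than in the SiglecF lo library of the same genotype. So was *mt-Cytb*, the only complex III gene of this genome. It was at 4269 and 4007 TPM in WT and *Cd300a-/-* SiglecF hi and 3055 and 2929 TPM in WT and *Cd300a-/-* SiglecF lo neutrophils. As relative ratios of SiglecF hi against SiglecF lo, the medians for complexes I, III, IV and V were 0.038, -0.044, -0.21 and -0.15 in WT. In *Cd300a-/-* mice they were -0.067, -0.16, -0.34 and -0.19. In *Cd300a-/-* against WT SiglecF lo neutrophils the median relative ratios for complexes I, III, IV and V were -0.07, -0.045, 0.036 and -0.10.

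Within the mitochondrial sum, *mt-Co1* and *mt-Co2*, of the catalytic core of complex IV, took the largest shares. *mt-Co2* was at 10698 and 10377 TPM in WT and *Cd300a-/-* SiglecF hi and 8462 and 8581 TPM in WT and *Cd300a-/-* SiglecF lo neutrophils. *mt-Co1* was at 10504 and 9538 TPM in WT and *Cd300a-/-* SiglecF hi and 8515 and 8910 TPM in WT and *Cd300a-/-* SiglecF lo neutrophils. The share of *mt-Co1* was 17.2%, 16.5%, 18.4% and 20.2% in WT SiglecF hi, then *Cd300a-/-* SiglecF hi, then WT SiglecF lo and then *Cd300a-/-* SiglecF lo neutrophils, the widest range of the 13 genes and highest in the last. Its relative ratio of SiglecF hi against SiglecF lo was -0.22 (95% interval -0.24 to -0.21) in WT and -0.52 (95% interval -0.53 to -0.50) in *Cd300a-/-* mice.

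*mt-Co3*, the third core subunit, was at 7921 and 7509 TPM in WT and *Cd300a-/-* SiglecF hi and 6363 and 5465 TPM in WT and *Cd300a-/-* SiglecF lo neutrophils. *mt-Atp6*, a proton channel subunit, was at 8794 and 8380 TPM in WT and *Cd300a-/-* SiglecF hi and 6825 and 6044 TPM in WT and *Cd300a-/-* SiglecF lo neutrophils. *mt-Atp8*, a short partner in the membrane part, was at 2533 and 2409 TPM in WT and *Cd300a-/-* SiglecF hi and 1935 and 1860 TPM in WT and *Cd300a-/-* SiglecF lo neutrophils. In TPM all 3 were higher in the SiglecF hi than in the SiglecF lo libraries. Their relative ratios of SiglecF hi against SiglecF lo were in that order -0.21, -0.16 and -0.14 in WT and -0.15, -0.14 and -0.24 in *Cd300a-/-* mice. *mt-Cytb* had relative ratios of -0.044, -0.16, -0.045 and -0.13 in the order of comparisons used above.

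The mitochondrial subunits of complex I all lie in its membrane arm. *mt-Nd1* was at 4219 and 4019 TPM in WT and *Cd300a-/-* SiglecF hi and 2853 and 2752 TPM in WT and *Cd300a-/-* SiglecF lo neutrophils. *mt-Nd4* was at 3385 and 3111 TPM in WT and *Cd300a-/-* SiglecF hi and 2367 and 2277 TPM in WT and *Cd300a-/-* SiglecF lo neutrophils. *mt-Nd2* was at 2594 and 2657 TPM in WT and *Cd300a-/-* SiglecF hi and 1745 and 1599 TPM in WT and *Cd300a-/-* SiglecF lo neutrophils. In TPM these 3 were also higher in SiglecF hi libraries. Their relative ratios of SiglecF hi against SiglecF lo were in that order 0.038, -0.010 and 0.046 in WT and -0.067, -0.16 and 0.12 in *Cd300a-/-* mice. *mt-Nd3* was at 2087 and 2284 TPM in WT and *Cd300a-/-* SiglecF hi and 1361 and 1282 TPM in WT and *Cd300a-/-* SiglecF lo neutrophils, the only mitochondrial gene with a ratio above 0 in *Cd300a-/-* against WT SiglecF hi neutrophils, 0.092 (95% interval 0.042 to 0.14). *mt-Nd6* was at 1250 and 1214 TPM in WT and *Cd300a-/-* SiglecF hi and 926 and 850.1 TPM in WT and *Cd300a-/-* SiglecF lo neutrophils.

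*mt-Nd5* was at 1477 and 1110 TPM in WT and *Cd300a-/-* SiglecF hi and 860.2 and 854 TPM in WT and *Cd300a-/-* SiglecF lo neutrophils, high in WT SiglecF hi neutrophils. Its relative ratio was 0.25 (95% interval 0.22 to 0.29) for SiglecF hi against SiglecF lo in WT, the highest of the 13, and -0.45 (95% interval -0.48 to -0.42) for *Cd300a-/-* against WT in SiglecF hi neutrophils, the lowest of the 13. *mt-Nd4l* was at 1246 and 1109 TPM in WT and *Cd300a-/-* SiglecF hi and 961 and 656 TPM in WT and *Cd300a-/-* SiglecF lo neutrophils, low in *Cd300a-/-* SiglecF lo neutrophils, with 1467 counts in WT and 1104 in *Cd300a-/-* SiglecF lo. Its relative ratio in that comparison was -0.54 (95% interval -0.65 to -0.42), and -0.062 when centred by length.

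Neighbouring mitochondrial genes share bases, which is shown because reads there fit both genes. By GENCODE transcripts *mt-Nd4l* and *mt-Nd4* share 7 bases, and *mt-Atp6* and *mt-Co3* share 1. By their coordinates *mt-Nd5* and *mt-Nd6* share 14 on opposite strands. *mt-Nd6* is the only mitochondrial member on the minus strand, and an unstranded library cannot tell the strands apart at any of its bases. *mt-Atp8* and *mt-Atp6* share 43 bases, chrMT:7927-7969, plus strand, printed 5′ to 3′ with the start codon of *mt-Atp6* in capitals.

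mt-Atp8 and mt-Atp6 overlap: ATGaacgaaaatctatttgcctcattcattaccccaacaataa

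Nuclear copies of mitochondrial sequence and processed copies of nuclear subunit genes can take reads that fit more than 1 place. How the deposited counts treated such reads is not stated, so levels of genes with near-identical copies are uncertain to that extent.

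Gene length moved with the result. Nuclear members had a median length of 1069 bases (371 to 4912) and mitochondrial members of 784 (204 to 1824), against 3036 (204 to 19842) for all genes tested. In *Cd300a-/-* against WT SiglecF lo neutrophils the median relative ratio of all genes rose over 10 equal classes of length, from -0.47 in the shortest genes through -0.31, -0.17, -0.053, -0.038, 0.054, 0.11, 0.16 and 0.21 to 0.33 in the longest. From the shortest to the longest class it went from 0.19 to -0.22 for SiglecF hi against SiglecF lo in *Cd300a-/-* mice, from -0.14 to 0.11 for the same in WT, and from -0.11 to 0.051 for *Cd300a-/-* against WT in SiglecF hi neutrophils.

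The shortest class, 204 to 1231 bases, held 48 of the 80 nuclear members. Their median in *Cd300a-/-* against WT SiglecF lo neutrophils was -0.44 with 22 lower, beside -0.49 and 48.4% lower (288 of 595) for the other genes of that class, so short nuclear members and other short genes had nearly the same values. In the next class the 11 nuclear members had a median of -0.55 with 6 lower, beside -0.31 and 35.5% for the other genes. In the class after that, 11 nuclear members had -0.51 with 6 lower, beside -0.16 and 24.7%. The 10 mitochondrial members in the shortest class had a median of -0.089.

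Of the nuclear members, the 40 shorter ones had a median of -0.50 with 20 lower, and the 40 longer ones -0.46 with 18 lower. With each ratio centred on genes of the same length class, chosen after seeing the data, the median of nuclear members between the SiglecF lo libraries was -0.097, with 10 lower (12.5%, against 15.7% of all genes) and 3 higher (3.75%, against 14.2%). By complex it was -0.096 for I, 0.16 for II, -0.025 for III, -0.08 for IV and -0.30 for V, and for mitochondrial members it was 0.37.

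For SiglecF hi against SiglecF lo in *Cd300a-/-* mice the length-centred median was 0.21 for nuclear members, with 16 higher (20.0%, against 21.3% of all genes) and 6 lower (7.50%, against 22.8%), and -0.33 for mitochondrial members. In both comparisons that use the *Cd300a-/-* SiglecF lo library, the medians of nuclear and of mitochondrial members lay on opposite sides of 0 under either centring for SiglecF hi against SiglecF lo, and under the length-centred ratio for *Cd300a-/-* against WT. Whether length or the share taken by abundant genes had a part in these values was not tested.

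**Figure D3:**
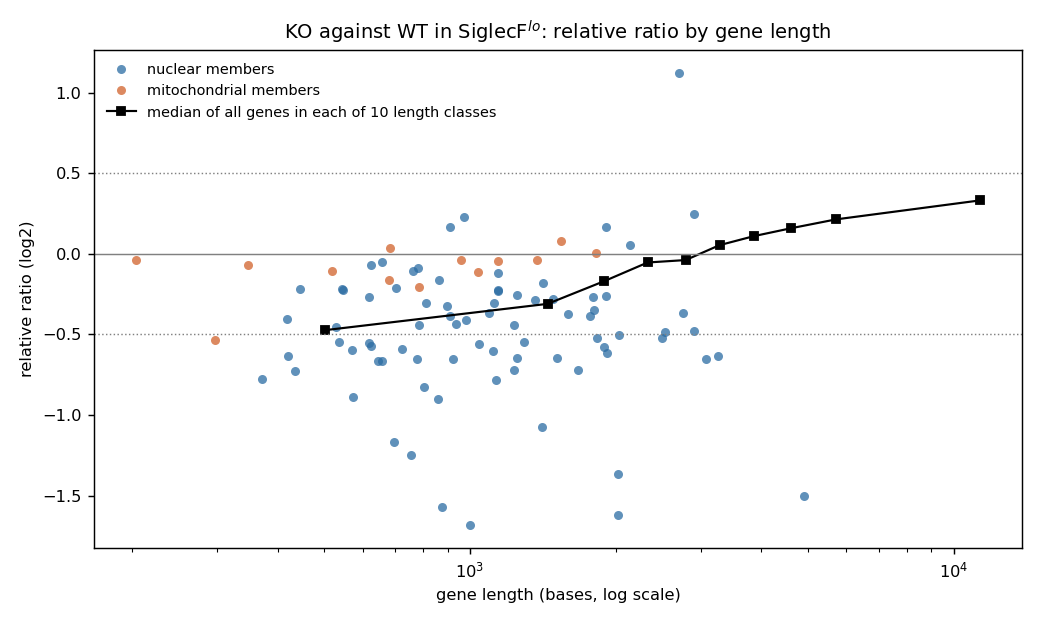
Relative ratio in *Cd300a-/-* (KO) against WT SiglecF lo neutrophils (y axis, log2) against gene length (x axis, bases, log scale), with 1 point per member and black squares at the median of all genes in each length class. The squares rise from -0.47 to 0.33 with length, and the shortest nuclear members lie around the squares while many longer nuclear members lie below them.

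Other genes that build or serve the respiratory chain were set beside the members. Their counts are to be read against all genes, of which 19.3% were higher and 20.9% lower for SiglecF hi against SiglecF lo in WT, 21.2% and 23.6% in *Cd300a-/-* mice, 17.2% and 19.1% for *Cd300a-/-* against WT within SiglecF lo and 2.64% and 4.09% within SiglecF hi neutrophils. Largest rises and falls are among genes past the filter. Of 40 assembly factors outside the name rule, 19 passed the filter, with median relative ratios of 0.17 (6 higher, 6 lower) for SiglecF hi against SiglecF lo in WT, 0.33 (8 higher, 2 lower) in *Cd300a-/-* mice, -0.44 (1 higher, 7 lower) for *Cd300a-/-* against WT within SiglecF lo and -0.14 (0 higher, 1 lower) within SiglecF hi neutrophils. *Higd2a*, a complex IV assembly factor, was the most abundant at 166 and 197 TPM in WT and *Cd300a-/-* SiglecF hi and 202 and 139.7 TPM in WT and *Cd300a-/-* SiglecF lo neutrophils. *Sdhaf4*, which helps insert the flavoprotein of complex II, had the largest fall between the SiglecF lo libraries, -1.92 (95% interval -2.69 to -1.14), and *Timmdc1*, a complex I assembly factor, the largest rise, 1.28 (95% interval 0.83 to 1.73). In WT SiglecF hi against SiglecF lo, *Timmdc1* had the largest rise (1.02) and *Pet100*, for complex IV assembly, the largest fall (-0.94).

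Mitochondrial ribosomal proteins translate the mitochondrial members. Of 78 genes 58 passed, with medians of 0.29 (18 higher, 4 lower) for SiglecF hi against SiglecF lo in WT, 0.53 (32 higher, 3 lower) in *Cd300a-/-* mice, -0.41 (5 higher, 24 lower) for *Cd300a-/-* against WT within SiglecF lo and -0.04 (0 higher, 1 lower) within SiglecF hi neutrophils. *Mrpl52* was the most abundant at 435 and 447 TPM in WT and *Cd300a-/-* SiglecF hi and 194 and 109.6 TPM in WT and *Cd300a-/-* SiglecF lo neutrophils, *Mrps7* had the largest fall between the SiglecF lo libraries at -2.27 (95% interval -2.71 to -1.83), and *Mrpl45* the largest rise at 1.63 (95% interval 1.28 to 1.97). In WT SiglecF hi against SiglecF lo these were *Mrpl33* (-1.91) and *Mrps9* (1.37).

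Genes for upkeep and expression of the mitochondrial genome numbered 30, 29 were in the files and 11 passed, with medians of 0.42 (5 higher, 0 lower) for SiglecF hi against SiglecF lo in WT, 0.90 (7 higher, 1 lower) in *Cd300a-/-* mice, -0.29 (1 higher, 5 lower) for *Cd300a-/-* against WT within SiglecF lo and -0.23 (2 higher, 1 lower) within SiglecF hi neutrophils. *Hsd17b10*, a subunit of mitochondrial RNase P, was the most abundant at 66.1 and 57.9 TPM in WT and *Cd300a-/-* SiglecF hi and 30.8 and 31.5 TPM in WT and *Cd300a-/-* SiglecF lo neutrophils, *Tfb2m*, a transcription factor of that genome, had the largest fall between the SiglecF lo libraries at -1.69 (95% interval -2.12 to -1.25), and *Mterf3* the largest rise at 1.32 (95% interval 1.01 to 1.62). In WT SiglecF hi against SiglecF lo, *Ptcd2* was highest (0.75) and *Ptcd3* lowest (-0.26), both RNA-binding proteins. Of 10 nuclear regulators of respiratory genes 5 passed, with medians of 0.022 (0 higher, 0 lower) for SiglecF hi against SiglecF lo in WT, -0.30 (0 higher, 2 lower) in *Cd300a-/-* mice, 0.015 (1 higher, 0 lower) for *Cd300a-/-* against WT within SiglecF lo and -0.016 (0 higher, 0 lower) within SiglecF hi neutrophils. *Yy1* was at 39.7 and 40.3 TPM in WT and *Cd300a-/-* SiglecF hi and 32.4 and 32.3 TPM in WT and *Cd300a-/-* SiglecF lo neutrophils, level across each pair of genotypes, and *Esrra*, a nuclear receptor that acts on respiratory genes, had 0.51 (95% interval 0.30 to 0.72) between the SiglecF lo libraries, where *Gabpb1* was lowest at -0.15. *Gabpa* was highest (0.14) and *Yy1* lowest (-0.24) in WT SiglecF hi against SiglecF lo. *Gabpa* and *Gabpb1* encode the parts of GABP.

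Electron carriers and ubiquinone synthesis had 9 of 15 genes past the filter, with medians of 0.39 (4 higher, 0 lower) for SiglecF hi against SiglecF lo in WT, 0.54 (5 higher, 0 lower) in *Cd300a-/-* mice, -0.44 (1 higher, 4 lower) for *Cd300a-/-* against WT within SiglecF lo and -0.15 (0 higher, 1 lower) within SiglecF hi neutrophils. *Etfb*, of the electron transfer flavoprotein, was at 169 and 135 TPM in WT and *Cd300a-/-* SiglecF hi and 65.6 and 41.7 TPM in WT and *Cd300a-/-* SiglecF lo neutrophils. *Coq7*, an enzyme of ubiquinone synthesis, was at 18.7 and 5.74 TPM in WT and *Cd300a-/-* SiglecF hi and 14.96 and 4.37 TPM in WT and *Cd300a-/-* SiglecF lo neutrophils, low in both *Cd300a-/-* libraries, with -1.56 (95% interval -1.996 to -1.12) within SiglecF lo and -1.58 within SiglecF hi neutrophils, whereas *Etfdh* had the largest rise between the SiglecF lo libraries at 1.56 (95% interval 1.24 to 1.89). In WT SiglecF hi against SiglecF lo, *Etfdh* was highest (1.33) and *Coq8b*, a kinase-like protein of ubiquinone synthesis, lowest (-0.30).

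The citrate cycle list, 16 of 18 past the filter, had medians of 0.022 (2 higher, 0 lower) for SiglecF hi against SiglecF lo in WT, 0.25 (5 higher, 0 lower) in *Cd300a-/-* mice, -0.22 (1 higher, 5 lower) for *Cd300a-/-* against WT within SiglecF lo and -0.014 (0 higher, 0 lower) within SiglecF hi neutrophils. *Mdh2*, malate dehydrogenase, was the most abundant at 393 and 437 TPM in WT and *Cd300a-/-* SiglecF hi and 298 and 263 TPM in WT and *Cd300a-/-* SiglecF lo neutrophils, *Sucla2*, of succinyl-CoA synthetase, had -1.64 (95% interval -1.90 to -1.38) between the SiglecF lo libraries, and *Dlst*, of the oxoglutarate dehydrogenase complex, had 0.81 (95% interval 0.68 to 0.95). *Idh3b*, of isocitrate dehydrogenase, was highest (0.87) and *Fh1*, fumarase, lowest (-0.47) in WT SiglecF hi against SiglecF lo.

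Of 22 genes for import and inner membrane carriers 20 passed, with medians of 0.15 (8 higher, 4 lower) for SiglecF hi against SiglecF lo in WT, 0.55 (12 higher, 1 lower) in *Cd300a-/-* mice, -0.39 (1 higher, 5 lower) for *Cd300a-/-* against WT within SiglecF lo and -0.14 (0 higher, 0 lower) within SiglecF hi neutrophils. The adenine nucleotide carrier *Slc25a5* was at 569 and 507 TPM in WT and *Cd300a-/-* SiglecF hi and 585 and 366 TPM in WT and *Cd300a-/-* SiglecF lo neutrophils, and its relative *Slc25a4*, the heart and muscle form, had -1.36 (95% interval -1.54 to -1.17) between the SiglecF lo libraries, the largest fall, while the outer membrane channel *Vdac3* had the largest rise at 0.65 (95% interval 0.46 to 0.83). In WT SiglecF hi against SiglecF lo, the translocase gene *Timm50* had the largest rise (1.32) and *Slc25a5* the largest fall (-0.57). Genes of uncoupling and reactive oxygen, 7 of 10 past the filter, had medians of -0.25 (0 higher, 1 lower) for SiglecF hi against SiglecF lo in WT, -0.22 (0 higher, 2 lower) in *Cd300a-/-* mice, -0.31 (0 higher, 1 lower) for *Cd300a-/-* against WT within SiglecF lo and -0.091 (0 higher, 0 lower) within SiglecF hi neutrophils. *Gpx1*, glutathione peroxidase, was at 2155 and 1963 TPM in WT and *Cd300a-/-* SiglecF hi and 1874 and 1494 TPM in WT and *Cd300a-/-* SiglecF lo neutrophils, and *Prdx5* had -1.56 and -1.59 for SiglecF hi against SiglecF lo in WT and *Cd300a-/-* mice. *Txn2*, mitochondrial thioredoxin, was highest in the former (0.21). Between the SiglecF lo libraries *Ucp2*, an uncoupling protein, was highest (0.17) and *Prdx3*, a peroxiredoxin, lowest (-0.53).

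Centred on genes of like length, chosen after seeing the data, the medians in *Cd300a-/-* against WT SiglecF lo neutrophils were -0.21 (2 higher, 7 lower) for assembly factors, -0.14 (8 higher, 17 lower) for ribosomal proteins, -0.34 (2 higher, 4 lower) for genome upkeep and expression, -0.20 (1 higher, 0 lower) for regulators, -0.27 (1 higher, 2 lower) for electron carriers, -0.17 (1 higher, 3 lower) for the citrate cycle, -0.18 (2 higher, 3 lower) for import and carriers and -0.01 (0 higher, 0 lower) for uncoupling and reactive oxygen. Of all genes 14.2% were then higher and 15.7% lower.

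Markers of the sorted cells and of other cell types differed between libraries as well. The 9 neutrophil genes summed to 28414 TPM for WT and 33470 TPM for *Cd300a-/-* among SiglecF hi neutrophils, and 155316 TPM for WT and 203909 TPM for *Cd300a-/-* among SiglecF lo neutrophils, with *S100a9* the most abundant at 13719 and 15355 TPM in WT and *Cd300a-/-* SiglecF hi and 76228 and 89228 TPM in WT and *Cd300a-/-* SiglecF lo neutrophils. None was at 0. Their sum was higher in SiglecF lo libraries and highest in *Cd300a-/-* SiglecF lo neutrophils, where the nuclear oxidative phosphorylation sum was lowest.

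The 10 macrophage genes, several of which tissue neutrophils can also express, summed to 16919 TPM for WT and 15615 TPM for *Cd300a-/-* among SiglecF hi neutrophils, and 6156 TPM for WT and 5335 TPM for *Cd300a-/-* among SiglecF lo neutrophils, with *Apoe* at 8313 and 8107 TPM in WT and *Cd300a-/-* SiglecF hi and 2637 and 2109 TPM in WT and *Cd300a-/-* SiglecF lo neutrophils. The 7 fibroblast genes summed to 2088 and 1475 TPM in WT and *Cd300a-/-* SiglecF hi and 964 and 979.8 TPM in WT and *Cd300a-/-* SiglecF lo neutrophils, with *Dcn* the most abundant. Both sums were higher in SiglecF hi libraries, as were the sums of the members, and none of their genes was at 0.

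The 7 endothelial genes summed to 340.3 TPM for WT and 453 TPM for *Cd300a-/-* among SiglecF hi neutrophils, and 559.7 TPM for WT and 169 TPM for *Cd300a-/-* among SiglecF lo neutrophils, mostly *Fabp4* at 259.8 and 349.8 TPM in WT and *Cd300a-/-* SiglecF hi and 412 and 117 TPM in WT and *Cd300a-/-* SiglecF lo neutrophils. All 6 that passed the filter were lower in *Cd300a-/-* SiglecF lo than in WT SiglecF lo neutrophils (against 19.1% of all genes), with a median relative ratio of -1.44. The 5 erythroid genes summed to 893 and 999.7 TPM in WT and *Cd300a-/-* SiglecF hi and 1417 and 780.5 TPM in WT and *Cd300a-/-* SiglecF lo neutrophils, with *Hba-a2* the most abundant. Both sums were lowest in the *Cd300a-/-* SiglecF lo library.

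The 4 eosinophil genes summed to 5.53 and 5.81 TPM in WT and *Cd300a-/-* SiglecF hi and 2.14 and 1.98 TPM in WT and *Cd300a-/-* SiglecF lo neutrophils, with *Ccr3* the most abundant, *Epx* at 0 in every library and *Prg2* at 0 in all but WT SiglecF hi. The 4 lymphocyte genes summed to 2.93 and 7.34 TPM in WT and *Cd300a-/-* SiglecF hi and 3.80 and 2.66 TPM in WT and *Cd300a-/-* SiglecF lo neutrophils, with *Cd79a* the most abundant by the mean, although it was at 0 in WT SiglecF lo, where *Nkg7* was highest at 2.87 TPM. The part of other cell types in the values of the members was not tested.

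Promoters of the nuclear members were read from RefSeq (build GRCm38.p6, 300 bases around each gene start, most before it and some after it), where 76 of 97 matched by symbol. Letters of motifs known to be bound by regulators of respiratory genes were matched exactly on both strands, which describes the sequence and not binding. CGCATGCG, from the NRF1 motif, was found for 11 of 76 members (14.5%) and 559 of all 27025 genes with promoters (2.07%). CCGGAAG, bound by GABP and other ETS factors, was found for 19 (25.0%) and 2683 (9.93%), and AAGATGGCG, from the YY1 motif, for 8 (10.5%) and 443 (1.64%).

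Longer forms, with G before and C after the NRF1 letters and with G and C after the YY1 letters, were found for 7 (9.21%) and 5 (6.58%) members and for 290 (1.07%) and 204 (0.755%) of all genes. The shorter NRF1 and YY1 forms were chosen after seeing the data. Of the members tested, 31 with a promoter were lower in *Cd300a-/-* SiglecF lo than in WT SiglecF lo neutrophils, and 4, 9 and 3 of them had the NRF1, ETS and YY1 letters, beside 5, 9 and 5 of the other 35. Promoters of 3 lower members with a match and of *Cox7b*, the member past the filter with the largest fall, which has none of the 3 motifs, are printed 5′ to 3′ with matches in capitals and bases counted from 1 at the 5′ end. CTTCCGG is the reverse complement of CCGGAAG.

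The promoter of *Cox7b* (complex IV), a gene whose relative ratio in *Cd300a-/-* against WT SiglecF lo neutrophils was -1.69, lies at chrX:106015450-106015749, plus strand, and has no match.

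Cox7b promoter: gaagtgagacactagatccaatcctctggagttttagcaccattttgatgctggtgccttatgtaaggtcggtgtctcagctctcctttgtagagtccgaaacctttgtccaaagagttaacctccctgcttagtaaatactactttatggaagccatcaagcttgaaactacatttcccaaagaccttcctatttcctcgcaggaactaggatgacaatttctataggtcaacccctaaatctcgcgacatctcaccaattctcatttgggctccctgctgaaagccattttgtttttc

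The promoter of *Atp5k* (subunit e of complex V), a gene whose relative ratio in *Cd300a-/-* against WT SiglecF lo neutrophils was -0.77, lies at chr5:108434350-108434649, minus strand, and has NRF1 letters at bases 202 to 209 and reversed ETS letters at bases 263 to 269. The ETS letters lie after the gene start.

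Atp5k promoter: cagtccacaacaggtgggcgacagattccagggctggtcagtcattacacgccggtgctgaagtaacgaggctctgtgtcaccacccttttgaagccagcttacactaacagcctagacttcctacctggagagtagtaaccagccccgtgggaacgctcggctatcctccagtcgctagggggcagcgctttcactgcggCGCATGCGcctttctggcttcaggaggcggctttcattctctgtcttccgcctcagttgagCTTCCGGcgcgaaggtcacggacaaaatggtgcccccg

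The promoter of *Atp5h* (subunit d of the stator stalk of complex V), a gene whose relative ratio in *Cd300a-/-* against WT SiglecF lo neutrophils was -0.82, lies at chr11:115419870-115420169, minus strand, and has reversed ETS letters at bases 213 to 219.

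Atp5h promoter: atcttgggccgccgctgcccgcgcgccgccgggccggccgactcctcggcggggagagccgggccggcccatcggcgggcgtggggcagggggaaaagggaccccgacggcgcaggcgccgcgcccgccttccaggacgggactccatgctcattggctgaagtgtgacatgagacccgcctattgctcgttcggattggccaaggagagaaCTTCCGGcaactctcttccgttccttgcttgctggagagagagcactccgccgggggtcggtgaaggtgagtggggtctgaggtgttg

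The promoter of *Atp5j2* (subunit f of complex V), a gene whose relative ratio in *Cd300a-/-* against WT SiglecF lo neutrophils was -0.72, lies at chr5:145191492-145191791, minus strand, and has YY1 letters at bases 274 to 282. These letters lie after the gene start, within the transcribed part.

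Atp5j2 promoter: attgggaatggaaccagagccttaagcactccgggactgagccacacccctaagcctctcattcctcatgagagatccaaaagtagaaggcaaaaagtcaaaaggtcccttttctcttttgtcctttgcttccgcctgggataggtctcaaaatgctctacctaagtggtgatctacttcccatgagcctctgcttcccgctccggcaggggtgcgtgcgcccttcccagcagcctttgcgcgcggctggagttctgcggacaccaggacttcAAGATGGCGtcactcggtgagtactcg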

How the data were processed

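Values came from 4 RNA-seq libraries, 1 per group. The authors counted reads of poly(A)-selected, unstranded libraries per gene with CLC Genomics Workbench, and their processing notes name GRCm39. They deposited counts and TPM, which were used here. RPKM was deposited by the authors and not used here. A deposited signal named CPM, whose sum differs between libraries, was not used.

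Relative ratios used a pseudocount of 1 TPM, genes with a mean above 10 TPM, centring on the median of all 6523 such genes and a threshold of 0.5. Intervals are 95% counting intervals (Poisson), and shares have exact binomial intervals. Gene length was computed from counts and TPM. The members and gene lists were chosen with earlier results of these data known.

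Genes were named by this rule: every mitochondrial member, *Sdha* to *Sdhd*, the tissue isoforms and c-ring genes, and in each nuclear group the most abundant member and the largest rise and fall in each of the 4 comparisons. In each other list these were the most abundant gene and the largest rise and fall in WT SiglecF hi against SiglecF lo and in *Cd300a-/-* against WT SiglecF lo neutrophils. Those lists were assembly factors outside the rule, electron carriers, the citrate cycle, mitochondrial ribosomal proteins, upkeep and expression of the mitochondrial genome, nuclear regulators, import and inner membrane, and uncoupling and reactive oxygen, beside markers of 8 cell types. Members below the filter were named as well. *Atp5k*, *Atp5h* and *Atp5j2* were named for their printed promoters, after their values were seen. A gene called the most abundant had the highest mean TPM over the 4 libraries, unless a library is named.

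Alternatives were other pseudocounts, filters, thresholds and scalings (TMM, DESeq2, no centring), and centring within 10 classes of gene length, which was chosen after seeing the data. Python 3.11.15, numpy 2.4.6, pandas 2.3.3, scipy 1.17.1, matplotlib 3.10.9, R 4.3.3, edgeR 4.0.16 and DESeq2 1.42.0 were used. The calculation was tested on simulated data.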

Additional observations from a re-analysis of the deposited data

Results flagged for a closer look

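*Ndufa5*, a supernumerary subunit of complex I, had relative ratios on opposite sides of 0 for SiglecF hi against SiglecF lo neutrophils, -0.66 in WT and 1.03 in *Cd300a-/-* mice. It was the only member with a mean above 10 TPM past 0.5 in opposite directions in the 2 genotypes. Without the subtraction of the median of all genes, its ratio was -0.13 in WT, not past 0.5, and 1.64 in *Cd300a-/-* mice. With 1 library per group, the difference was not tested.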

How the results depend on the processing

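Of 136 values recomputed under alternative settings, 80 stayed within the counting error of the reported value or within 1.5 times the reported count, 56 moved, and none reversed a called value. Comparisons are named here as WT contrast and *Cd300a-/-* contrast (SiglecF hi against SiglecF lo in each genotype) and as SiglecF lo contrast and SiglecF hi contrast (*Cd300a-/-* against WT in each fraction). Medians are relative ratios, counts are nuclear members past 0.5 in either direction, and the reported counts were 11, 28, 39 and 3 in that order. A pseudocount of 0.1 moved none.

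Without centring, the WT contrast gave medians of 0.54 (nuclear) and 0.43 (mitochondrial) and a count of 44, the *Cd300a-/-* contrast 0.99, 0.46 and 71, and the SiglecF hi contrast a mitochondrial median of -0.073. These shifts follow from leaving out the subtraction. Without a filter, the WT contrast gave 0.16, 0.052 and 20, the *Cd300a-/-* contrast 0.64, 0.038 and 59, and the SiglecF hi contrast a mitochondrial median of -0.073 and a count of 8. With a mean above 1 TPM, the WT contrast gave a mitochondrial median of -0.14 and a count of 21, and the SiglecF hi contrast a count of 8. With more than 10 TPM in at least 1 library, mitochondrial medians were -0.13 and -0.19 in the WT and *Cd300a-/-* contrasts, and the SiglecF hi contrast had a count of 6. These filters change which genes are tested and centred on.

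With DESeq2 size factors, mitochondrial medians were -0.18, -0.21, -0.0061 and -0.077 in the order above, and with TMM that of the *Cd300a-/-* contrast was -0.12. Centring within 10 classes of gene length, chosen after seeing the data, gave mitochondrial medians of 0.043, -0.33, 0.37 and 0.0031, nuclear medians of 0.21 in the *Cd300a-/-* and -0.097 in the SiglecF lo contrast, and counts of 13 in the SiglecF lo and 1 in the SiglecF hi contrast. It lowered the counts by complex I, III, IV and V in the SiglecF lo contrast from 17, 4, 6 and 10 lower to 6, 0, 1 and 2, complex I in the *Cd300a-/-* contrast from 16 higher to 9, and members below 0 in both genotype contrasts from 56 to 28 nuclear and 9 to 1 mitochondrial. Medians of other lists moved in the SiglecF lo contrast to -0.20 (regulators), -0.18 (import) and -0.010 (uncoupling). For these scalings the cause was not tested. A threshold of 1 gave counts of 1, 10, 9 and 0, as a stricter threshold must give fewer.

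The log2 ratio of mitochondrial to nuclear sums was 1.75 in WT SiglecF hi neutrophils with subunits alone. From counts in place of TPM it was 1.67 for WT and 1.61 for *Cd300a-/-* among SiglecF hi neutrophils and 1.72 for WT SiglecF lo neutrophils. Without *mt-Co2* it was 1.46, 1.41, 1.46 and 1.84 (WT then *Cd300a-/-* for SiglecF hi, then WT and *Cd300a-/-* for SiglecF lo), since the sum lost the gene most abundant by the mean of the libraries.

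No paired analysis was possible because each group was 1 pool of mice and the labels pair no libraries. With 1 library per group, variation between pools is unknown. Depth limits many of the members below the filter, whose counts in a library were often under 100. *Ndufb2* and *Ndufab1* had 426 and 541 counts in WT SiglecF hi neutrophils. Their computed lengths of 4375 and 4473 bases lower their TPM.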
